A study of Homo sapiens with 72 samples.

Results

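The comparison described here is that of IMR-90 cells 24 hours after exposure to α-particles with sham-irradiated cells of the same time. Its members were chosen by treatment and time point as the sample titles give them, and they are 8 of the 72 arrays deposited, 4 irradiated and 4 control. IMR-90 is an early passage line of normal human lung fibroblasts, all from 1 established line. Irradiated cells grew on the thin Mylar base of a dish and received 0.5 Gy (50 cGy) of α-particles, bystander cells grew in an inner dish whose thicker base stopped the particles, and controls were treated alike without the beam. All groups were unmodified cells without a transgene or a drug. The paper describes the 4 replicates as independent experiments. In each of them the control, irradiated and bystander cells came from 1 pool and were handled in parallel. The irradiated and control array of an experiment are therefore compared as a pair.

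α-Particles deposit dense tracks of energy and produce clustered DNA breaks. Such breaks activate the kinase ATM and through it the transcription factor p53, whose targets arrest the cell cycle, aid repair and also switch p53 off again. Damaged fibroblasts are also known to turn on NF-kB, which drives cytokines, chemokines and proteases of the secreted inflammatory programme, and to lower the expression of cell cycle genes. Metallothioneins are small zinc-binding proteins that are induced by metals and oxidative stress.

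Expression was read on 1-colour whole-genome arrays and is given as log2 signal after all arrays were set to the same 75th percentile, and a ratio is the irradiated minus the control value of an experiment on this scale. Values are means ± SD over the 4 experiments unless stated. The share of spots that stood clear of background ran from 67.1% to 76.9% per array, and precision is limited by the number of arrays. The unscaled 75th percentile of the irradiated array lay 0.76 above that of its control in experiment 1, 1.6 and 0.8 below it in experiments 2 and 3 (-1.6 and -0.8) and 0.05 above it in experiment 4. All 12 fibroblast markers tested, among them COL1A1, COL1A2, DCN, THY1 and VIM, were above background on 4 of 4 control and 4 of 4 irradiated arrays. CDH1 (epithelium), PTPRC (leukocytes) and PECAM1 (endothelium) were above background on 0 of 4 and 0 of 4, but other members of these lists were detected. KRT8, KRT18, KRT19, NKX2-1 and SFTPC of the epithelial list were above background on 4 of 4 and 4 of 4. So were CD14, CD3E and CD68 of the leukocyte list. TEK, KDR, VWF and CLDN5 of the endothelial list were above background on all 8 arrays, and the 6 endothelial markers, led by TEK, had summed log2 levels between 12.05 and 13.09 in controls and between 12.17 and 13.41 after irradiation. The 8 epithelial markers had summed log2 levels between 12.62 and 13.44 in controls and between 12.28 and 13.71 after irradiation, led by KRT18 on 7 of the 8 arrays. The 7 leukocyte markers, led by CD68, had summed levels of 9.44, 9.69, 9.62 and 9.80 in controls and 9.99, 10.25, 10.09 and 9.94 after irradiation, without overlap, while PTPRC, LYZ and FCGR3A were at background on every one of these arrays.

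In experiment 3 several inflammatory genes were far higher in the control than in the other experiments. IL6, a cytokine of the NF-kB programme, had control levels of 8.95, 9.07, 17.47 and 9.83 in experiments 1 to 4. The plasminogen activator inhibitor SERPINB2 had control levels of 8.28, 8.40, 15.04 and 8.92, and CXCL8, the neutrophil attractant interleukin 8, had 11.13, 9.02, 16.01 and 10.76. The control of experiment 3 was thus the highest for each of these genes, by at least 4 log2 units, while at 6 hours the IL6 control level of experiment 3 was 9.41, between 7.72 and 10.15 in the other experiments. Over all probes tested, 144 lay at least 4-fold above and 64 at least 4-fold below the median of the other controls in experiment 3 (0.824%). The counts were 118 and 1082 in experiment 2 (4.75%) and 81 and 635 in experiment 4 (2.84%), so that over all probes the controls of experiments 2 and 4 lay further from the others than that of experiment 3. The mean correlation with the other controls was 0.957, 0.925, 0.957 and 0.938 in experiments 1 to 4. The spread of log2 differences between experiments over the probes tested ran from 0.645 to 1.29 (SD) among controls and from 0.609 to 1.05 among irradiated arrays. Because the irradiated array of experiment 3 carried the same high levels, ratios within experiments were used throughout. Without experiment 3 the ratio of CLDN1 was 2.99, of CXCL5 1.72, of PLK3 1.02, of PRSS35 -2.55, of S1PR1 -1.50, of BMP4 -1.15 and of OLFML3 -1.38, against 2.54, 1.61, 0.97, -2.18, -1.66, -1.24 and -1.70 with all 4 experiments.

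**Figure D1:**
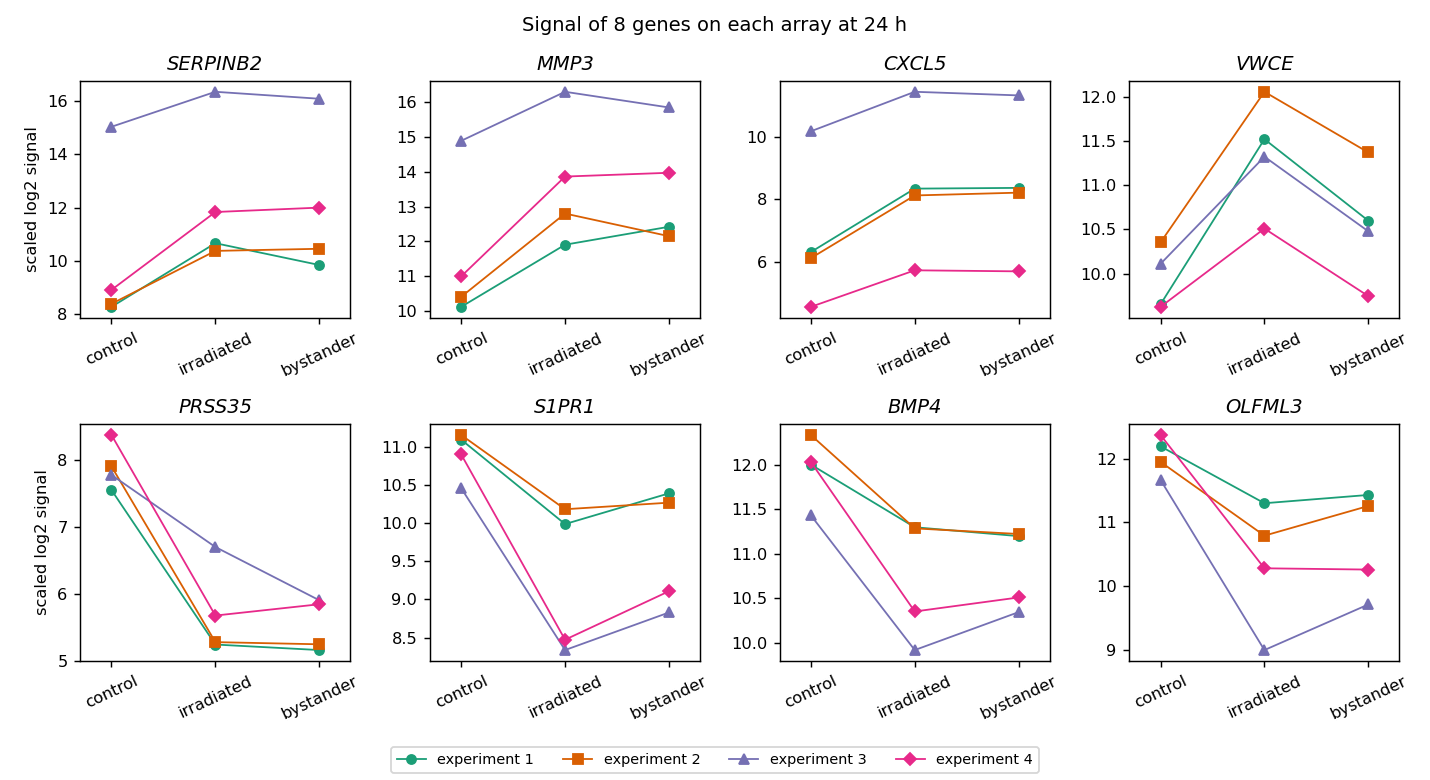
Scaled log2 signal (vertical axis) of 8 genes on each array at 24 hours in control, irradiated and bystander cells, with a line for each of the 4 experiments. SERPINB2, MMP3 and CXCL5 start higher in experiment 3, yet every line of the upper row rises from control to irradiated and every line of the lower row falls.

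At 24 hours the genes that rose included CLDN1 of tight junctions, the protease inhibitor SERPINB2, the matrix protease MMP3, the chemokine CXCL5 and the p53 targets GDF15, GADD45A, PLK3 and PIDD1, and those that fell included PRSS35, the receptor S1PR1, the growth factor BMP4 and the matrix proteins OLFML3, MATN2 and LAMA4. limma's moderated test was fitted to the 12 arrays of 24 hours, bystander arrays included, with the experiment as a block. In it 44 of 25246 probes passed a Benjamini-Hochberg adjusted p of 0.10, which is 0.174% of those tested. Higher expression was called for 29 probes (0.115%) of 26 named genes and lower expression for 15 probes (0.0594%) of 13 named genes. Their log2 ratios ran from 0.75 to 2.54 in size, and their adjusted p from 0.049 to 0.0975. Each of the 44 had 1 sign in all 4 experiments, as had 17% of all probes. In 18 of them the levels of the irradiated and control arrays did not overlap, 8 higher and 10 lower, against 0.82% and 1.97% of all probes. The test itself favours probes with 1 sign and separate groups, so these shares give no separate support. At an unadjusted p below 0.05 there were 1566 probes higher (6.2%) and 1773 lower (7.02%). The calls rested on all experiments together: 0 probes passed when any 1 of experiments 1, 2, 3 or 4 was left out. All 44 kept their direction and an unadjusted p below 0.05 each time, but the arrays left in had also helped to choose them. With the 8 irradiated and control arrays alone 0 probes passed as well. With arrays left unscaled the median of all probes moved to -0.38 and 77 probes passed, 8 higher (10.4%) in place of 65.9% of the calls, and 11 of the 77 were among the 44.

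**Figure D2:**
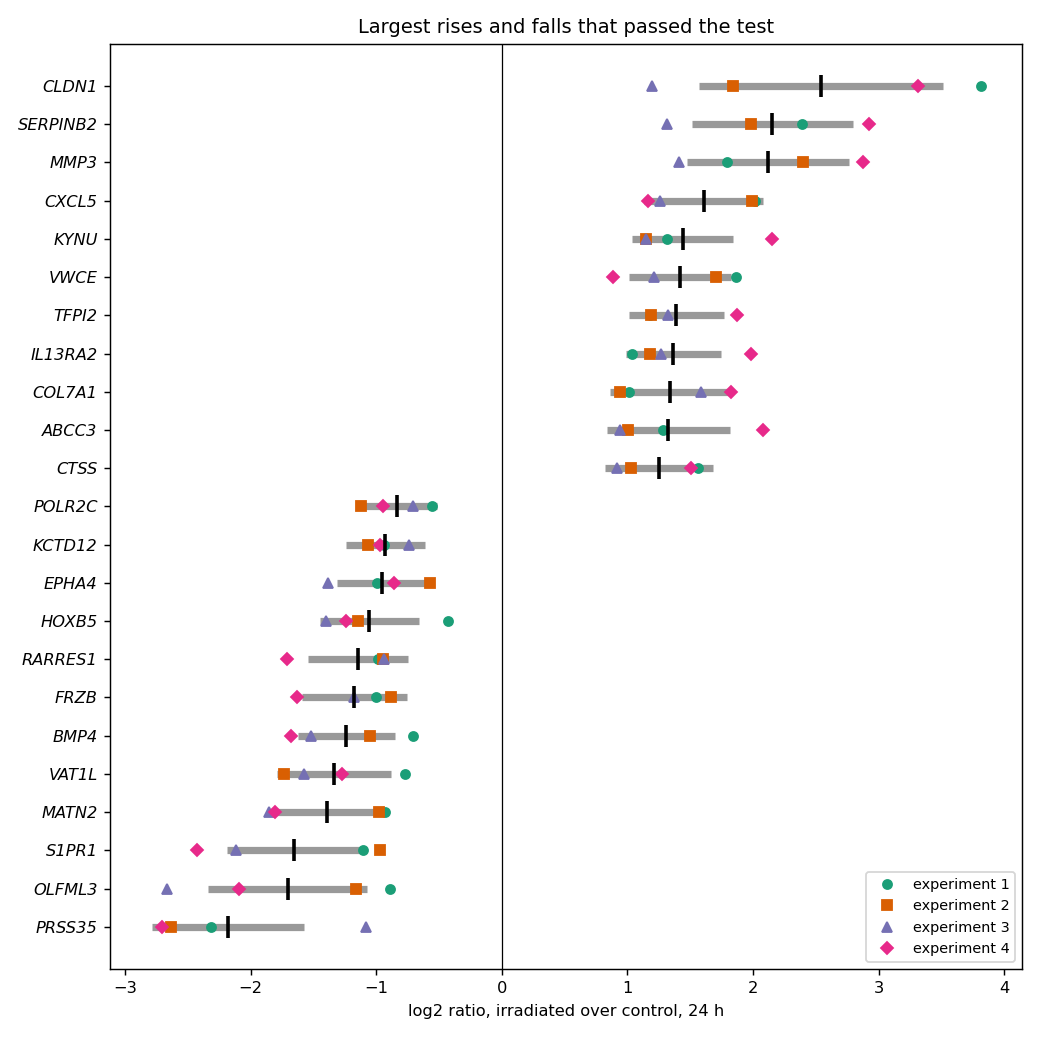
Log2 ratios of irradiated over control at 24 hours (horizontal axis) for 11 of the 12 genes with the largest rises and the 12 with the largest falls among those that passed the test. Points are experiments, black bars the fitted mean and grey bars its 95% interval. All 4 points of each gene lie on 1 side of 0, as the choice of genes required, from CLDN1 at 2.54 to PRSS35 at -2.18.

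The genes that rose included protease inhibitors and proteases. SERPINB2 had irradiated levels of 10.67, 10.38, 16.35 and 11.84 in experiments 1 to 4, each above the control of its experiment, although the groups overlapped because of experiment 3. Its log2 ratio was 2.15 ± 0.68 (adjusted p = 0.0521, limma), a 4.45-fold rise, and its other probe gave 2.12 ± 0.79 (adjusted p = 0.088). Without experiment 3 the ratio was 2.43. MMP3, or stromelysin-1, a protease that cleaves matrix proteins, had 10.11, 10.40, 14.89 and 10.99 in controls and 11.90, 12.80, 16.31 and 13.86 after irradiation. Its ratio was 2.12 ± 0.65 (adjusted p = 0.0537), and 2.36 without experiment 3. TFPI2, an inhibitor of serine proteases deposited in matrix, rose by 1.39 ± 0.33 (adjusted p = 0.049), and the brighter of its probes gave 0.87 ± 0.34 (adjusted p = 0.144). CTSS, a lysosomal cysteine protease, rose by 1.25 ± 0.32 (adjusted p = 0.0676). Of 8 genes of the plasminogen activator system tested, all 8 had ratios above 0, 4 had an unadjusted p below 0.05, and SERPINB2 was the only call, with a median of 0.55 (0.83 without experiment 1, 0.15 with arrays unscaled) against -0.00 for all 13017 genes. Of 13 metalloproteinases and their inhibitors MMP3 was the only call. The interstitial collagenase MMP1, with a ratio of 1.54 ± 0.73, did not pass (adjusted p = 0.133).

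Further genes that rose were CLDN1, F11R, LAMB3 and COL7A1. CLDN1, a claudin of tight junctions, had control levels of 3.05, 4.19, 10.38 and 6.77 and irradiated levels of 6.87, 6.03, 11.57 and 10.08. Every experiment showed a rise, and 3 of the 4 control arrays and all 4 irradiated arrays were well above background. The ratio was 2.54 ± 1.23 (adjusted p = 0.0975), so that its size rests in part on a control not well above background. F11R, the junctional adhesion molecule A, rose by 1.08 ± 0.18 (adjusted p = 0.0654). LAMB3, a chain of the laminin that anchors epithelia, rose by 1.19 ± 0.16 and COL7A1, the collagen of anchoring fibrils, by 1.34 ± 0.43 (adjusted p = 0.058 and 0.0795). COL7A1 was the only one of 18 collagen chains called. Among the other 17, 5 had an unadjusted p below 0.05 and all of these were lower, as in COL5A1 (-0.80 ± 0.42, adjusted p = 0.156), COL15A1 (-0.67 ± 0.14, adjusted p = 0.223) and COL3A1 (-0.67 ± 0.36, adjusted p = 0.224).

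Receptors, enzymes and chemokines made up the rest of the largest rises. IL13RA2, a decoy receptor of interleukin 13, rose by 1.37 ± 0.42 and KYNU, an enzyme of tryptophan breakdown, by 1.44 ± 0.48 (both adjusted p = 0.049). ABCC3, an exporter of organic anions, rose by 1.33 ± 0.52 (adjusted p = 0.088), and HSD11B1, which regenerates active cortisol, by 1.20 ± 0.46 (adjusted p = 0.0675). VWCE, a secreted protein with von Willebrand factor C domains, had 9.65, 10.35, 10.11 and 9.62 in controls and 11.52, 12.06, 11.32 and 10.51 after irradiation, without overlap. Its ratio was 1.42 ± 0.45 (adjusted p = 0.049). The other named genes that rose were HSPA4L, ATG16L2, ADGRG1, SRGN, TUBA4A, CRELD1 and GK, with ratios from 0.83 to 1.24 on the probes called. The brightest of 4 TUBA4A probes went the other way, at -0.50 ± 0.83 (adjusted p = 0.473), and the brightest of 4 GK probes gave 0.50 ± 0.32 (adjusted p = 0.297) against 0.83 on the probe called. In addition, 2 probes without a gene symbol rose by 2.11 and 1.02.

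CXCL5, a chemokine that attracts neutrophils, had 6.33, 6.13, 10.17 and 4.58 in controls and 8.34, 8.13, 11.42 and 5.75 after irradiation on the probe that was called, where each experiment rose and 3 of 4 controls were well above background. Its ratio there was 1.61 ± 0.46 (adjusted p = 0.0521), and its brighter probe gave 1.12 ± 0.82 (adjusted p = 0.209). Over 18 inflammatory cytokines and chemokines tested by their brightest probe, 14 had ratios above 0, 13 an unadjusted p below 0.05 on the higher side and 1 on the lower side, and 0 passed the adjusted threshold. The background at the unadjusted level, for this and all other lists, was 6.46% of genes higher and 7.72% lower. The list had a median ratio of 0.89, 0.77 without experiment 3 and 0.49 with arrays unscaled. Its medians in experiments 1 to 4 were 1.05, 0.72, 0.99 and 0.10, and in experiment 4 10 of the 18 genes were above 0. CXCL8 had irradiated levels of 12.41, 11.88, 16.68 and 13.23, each above its control, and a ratio of 1.82 ± 1.02 (adjusted p = 0.162). IL33 had a ratio of 1.80 ± 1.20 (adjusted p = 0.192), IL1B 0.72 ± 0.40 (adjusted p = 0.198) and TSLP 1.10 ± 0.41 (adjusted p = 0.107). IL6 had irradiated levels of 10.78, 10.43, 18.46 and 9.68, which is above control in experiments 1 to 3 and below it in experiment 4, and its ratio was 1.01 ± 0.84 (adjusted p = 0.253). The stromal chemokine CXCL12 went the other way, at -1.14 ± 0.78 (adjusted p = 0.179). Of 20 NF-kB subunits and feedback genes 8 were higher at an unadjusted p below 0.05, 0 lower and 0 called, among them BIRC3, an inhibitor of apoptosis (1.34 ± 0.61, adjusted p = 0.18), TNFAIP3, which switches NF-kB off (0.80 ± 0.54, adjusted p = 0.193), and RELB (0.71 ± 0.33, adjusted p = 0.192). The median of that list was 0.44, but 0.04 with arrays unscaled, and in experiment 4 it was 0.002 with 10 of 20 genes above 0.

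The promoters of these genes were read from RefSeq (GRCh38.p14), as the 250 bases before the start of the gene. The NF-kB motif was searched as GGG, any 2 bases and TTTCC on either strand. It lay in the windows of 2 of the 18 genes called higher that had a window, CXCL5 and COL7A1 (11.1%), in 6 of 15 inflammatory genes (40%) and in 1.73% of all 27305 promoters. The 6 were CXCL1, CXCL2, CXCL3, CXCL5, CXCL6 and IL6. None of the 11 windows of genes called lower held it. The AP-1 motif, TGACTCA on either strand, lay in 0 of the 18, in 3 of the 15 and in 4.16% of all promoters. The windows of the called genes with a match are shown because these are the sequences behind the count, with the match in capitals, at chr4:73998678-73998927 (minus strand) and chr3:48595330-48595579 (minus strand).
CXCL5: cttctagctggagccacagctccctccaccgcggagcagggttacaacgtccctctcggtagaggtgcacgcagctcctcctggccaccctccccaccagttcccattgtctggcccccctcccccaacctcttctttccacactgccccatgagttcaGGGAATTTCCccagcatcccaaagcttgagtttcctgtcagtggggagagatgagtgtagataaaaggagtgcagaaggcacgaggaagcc
COL7A1: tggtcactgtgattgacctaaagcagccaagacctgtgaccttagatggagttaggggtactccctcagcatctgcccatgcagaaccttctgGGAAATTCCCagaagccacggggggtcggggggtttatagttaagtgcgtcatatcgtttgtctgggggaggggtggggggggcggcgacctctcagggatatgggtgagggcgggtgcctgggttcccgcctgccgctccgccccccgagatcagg
The match lay 91 bases before the start in CXCL5 and 157 bases before it in COL7A1.

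p53 targets had fitted ratios above 0 with few exceptions, although fewer were above 0 in experiment 4. GDF15, a stress cytokine induced by p53, had 14.77, 14.42, 17.70 and 14.03 in controls and 16.18, 15.76, 18.36 and 15.35 after irradiation, with every experiment higher. Its ratio was 1.18 ± 0.35 (adjusted p = 0.0948), and 1.36 without experiment 3. GADD45A, which takes part in growth arrest and repair, had 11.29, 11.34, 12.68 and 11.84 in controls and 12.76, 12.16, 13.70 and 12.49 after irradiation. Its ratio was 0.99 ± 0.35 (adjusted p = 0.0975). The stress kinase PLK3 had 10.64, 10.85, 13.28 and 11.56 against 11.63, 11.84, 14.07 and 12.64, and its ratio of 0.97 ± 0.12 varied least between experiments of all p53 targets called (adjusted p = 0.049). PIDD1, a p53-induced death domain protein, rose by 0.88 ± 0.20 (adjusted p = 0.0675) without overlap of the groups. Of 20 targets of cell cycle arrest and damage response all 20 had a fitted ratio above 0, 10 were higher at an unadjusted p below 0.05, and 3 were called. Of 8 feedback genes 6 were above 0, 3 had an unadjusted p below 0.05 and PIDD1 was called. With the slide as a further block GDF15, GADD45A, PLK3 and PIDD1 did not pass (adjusted p from 0.145 to 0.176, limma). Their ratios in that fit ran from 0.93 to 1.14. At the gene level 0.169% of all genes were called higher. The medians were 0.51 and 0.41, and 0.11 and 0.01 with arrays unscaled, and the first was 0.33 without experiment 1. Of the 20 arrest genes 20, 17, 18 and 12 were above 0 in experiments 1 to 4. Of the 8 feedback genes 6, 6, 5 and 5 were. In experiment 4 the medians were 0.14 and 0.22.

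Several well-known targets did not pass. CDKN1A, which encodes the cell cycle inhibitor p21, had 12.95, 12.73, 14.27 and 14.52 in controls and 14.86, 13.70, 14.40 and 14.80 after irradiation. The rise was largest in experiments 1 and 2, and the ratio was 0.83 ± 0.81 (adjusted p = 0.314), and 0.46 without experiment 1. MDM2, the ubiquitin ligase that degrades p53, had 6.53, 6.67, 6.88 and 6.28 against 7.58, 7.07, 7.68 and 6.97, without overlap, and its ratio was 0.74 ± 0.27 (adjusted p = 0.193). RRM2B, which supplies nucleotides for repair, also showed no overlap, with a ratio of 0.98 ± 0.29 (adjusted p = 0.112). Among 15 apoptosis genes and death receptors 2 were higher and 1 lower at an unadjusted p below 0.05 and 0 were called. The decoy receptor TNFRSF10C had a ratio of 1.11 ± 0.59 (adjusted p = 0.217), and TP53I3 was at -0.89 ± 0.77 (adjusted p = 0.248). The median of this list was 0.26, and -0.14 with arrays unscaled. Of its 15 genes 9, 8, 9 and 7 were above 0 in experiments 1 to 4, and the median of experiment 4 was -0.28.

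Metallothioneins had the highest median of the 34 gene lists, 1.32, with experiment medians of 1.24, 1.69, 0.45 and 1.91. MT1X had 12.96, 13.38, 15.79 and 13.86 in controls and 14.38, 15.06, 16.24 and 15.83 after irradiation. Each experiment rose, least in experiment 3, whose control was highest. Its ratio was 1.38 ± 0.66 (adjusted p = 0.156). MT2A had 16.23, 16.50, 17.80 and 16.86 against 17.04, 17.50, 18.31 and 18.23, a ratio of 0.92 ± 0.36 (adjusted p = 0.156), and MT1E had 1.42 ± 0.67 (adjusted p = 0.151). Of the 15 members tested, which include zinc transporters and the factor MTF1, 14 were above 0, 10 were higher at an unadjusted p below 0.05 and 0 were called. All 10 were metallothioneins, and the zinc exporter SLC30A1, also a target of MTF1, was at -0.13 ± 0.32 (adjusted p = 0.817). Metallothionein genes are near-identical in sequence and lie in 1 cluster, so their probes can share signal and their ratios are not independent.
The metal response element was searched by its core, TGCNCNC on either strand, in the same windows. Of the 11 metallothioneins tested 4 had a window and were searched, and all 4 held at least 2 matches, against 18.3% of all promoters. The windows of MT1X and MT2A are shown, at chr16:56682220-56682469 and chr16:56608334-56608583 (plus strand), with matches in capitals, because these members had the values given above.
MT1X: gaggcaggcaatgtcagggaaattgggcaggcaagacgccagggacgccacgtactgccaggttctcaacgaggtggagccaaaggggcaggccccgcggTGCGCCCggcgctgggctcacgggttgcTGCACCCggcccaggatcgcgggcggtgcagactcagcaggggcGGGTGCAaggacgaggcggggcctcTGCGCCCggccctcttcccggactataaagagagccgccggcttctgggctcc
MT2A: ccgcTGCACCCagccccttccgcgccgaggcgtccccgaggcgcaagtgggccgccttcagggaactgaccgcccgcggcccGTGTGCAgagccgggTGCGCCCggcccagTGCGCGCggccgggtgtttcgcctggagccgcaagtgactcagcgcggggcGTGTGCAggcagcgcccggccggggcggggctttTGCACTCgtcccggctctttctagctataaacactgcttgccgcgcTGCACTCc
MT1X held 4 matches and MT2A held 7. A match shows only that these letters are present.

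The largest fall among the calls was that of PRSS35, a secreted protein related to serine proteases. It had 7.55, 7.91, 7.78 and 8.38 in controls and 5.24, 5.28, 6.70 and 5.67 after irradiation. The groups did not overlap, and it fell by 2.18 ± 0.75 on the log2 scale (adjusted p = 0.049), with 3 of the 4 irradiated arrays well above background. S1PR1, a receptor of sphingosine 1-phosphate, had 11.09, 11.15, 10.46 and 10.90 against 9.99, 10.18, 8.34 and 8.47, again without overlap, and a ratio of -1.66 ± 0.73 (adjusted p = 0.058). BMP4, a growth factor of the TGF-beta family, had levels from 11.43 to 12.34 in controls and of 11.30, 11.28, 9.91 and 10.35 after irradiation, without overlap, a ratio of -1.24 ± 0.45 (adjusted p = 0.0578). FRZB, a secreted antagonist of Wnt, fell on both of its probes, by 1.41 ± 0.27 and 1.17 ± 0.33 (adjusted p = 0.049 and 0.079). The receptor tyrosine kinase EPHA4 fell on 2 of its 3 probes, by 1.05 ± 0.18 and 0.95 ± 0.34 (adjusted p = 0.058 and 0.0948), and the other gave -1.21 ± 0.59 (adjusted p = 0.107), and the homeobox factor HOXB5 fell by 1.06 ± 0.43 (adjusted p = 0.088).

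Among matrix proteins OLFML3, a secreted olfactomedin-like protein, had 12.19, 11.95, 11.67 and 12.37 in controls and no more than 11.30 after irradiation, lowest in experiment 3. The groups did not overlap, and its ratio was -1.70 ± 0.82 (adjusted p = 0.088). MATN2, a filament-forming matrilin, fell by 1.39 ± 0.51 (adjusted p = 0.0628) and LAMA4, a laminin chain of vascular and stromal basement membranes, by 0.75 ± 0.19 (adjusted p = 0.0973). LAMA4 was the only call among 26 other matrix proteins, of which 6 were lower and 2 higher at an unadjusted p below 0.05. VAT1L, RARRES1, KCTD12 and the RNA polymerase II subunit POLR2C fell with ratios from -1.34 to -0.83. FKBP10, a chaperone of collagen folding, had 13.50, 13.46 and 13.57 in the controls of experiments 2 to 4, a lower level in experiment 1, and 11.01, 12.01, 11.85 and 9.24 after irradiation, a ratio of -2.10 ± 1.51 that did not pass (adjusted p = 0.191) and was -1.36 without experiment 4. The fibroblast markers, which define the cell type, had a median of -0.63 over 12 genes, with 6 lower at an unadjusted p below 0.05 and 0 called. THY1, PDGFRB and COL1A1 were among those below 0, and 2 of the 12 were above 0. Mean levels in control and irradiated cells were 12.52 and 12.92 for FAP, 13.43 and 13.45 for LUM, and 17.30 and 17.23 for VIM. The medians of the fibroblast markers in experiments 1 to 4 were -0.33, 0.05, -0.82 and -1.16, and the fitted median was -0.40 without experiment 4. Their part in the other falls was not tested. Bulk RNA of this 1 line gives an average over its cells. Fewer cells that express these genes cannot be told apart from a lower level in each cell. For 15 smooth muscle contractile genes the median was -0.53, and -0.18 without experiment 3, with 0 of 15 fitted ratios above 0, 5 lower at an unadjusted p below 0.05 and 0 called. In experiments 1 to 4 there were 1, 4, 0 and 9 of the 15 above 0, and the median of experiment 4 was 0.06. MYH11 had 11.13, 11.60, 10.45 and 11.05 in controls and 10.31, 10.24, 6.43 and 10.67 after irradiation, and its ratio was -1.65 ± 1.63 (adjusted p = 0.267), and -0.86 without experiment 3. For 17 interferon response genes 2 were above 0 and 5 were lower at that level, with a median of -0.41 that was -0.25 without experiment 3, -0.21 without experiment 4 and -0.15 with normexp background correction. IRF9, a subunit of the interferon-stimulated factor, had no overlap between groups and a ratio of -0.70 ± 0.22 (adjusted p = 0.157).

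**Figure D3:**
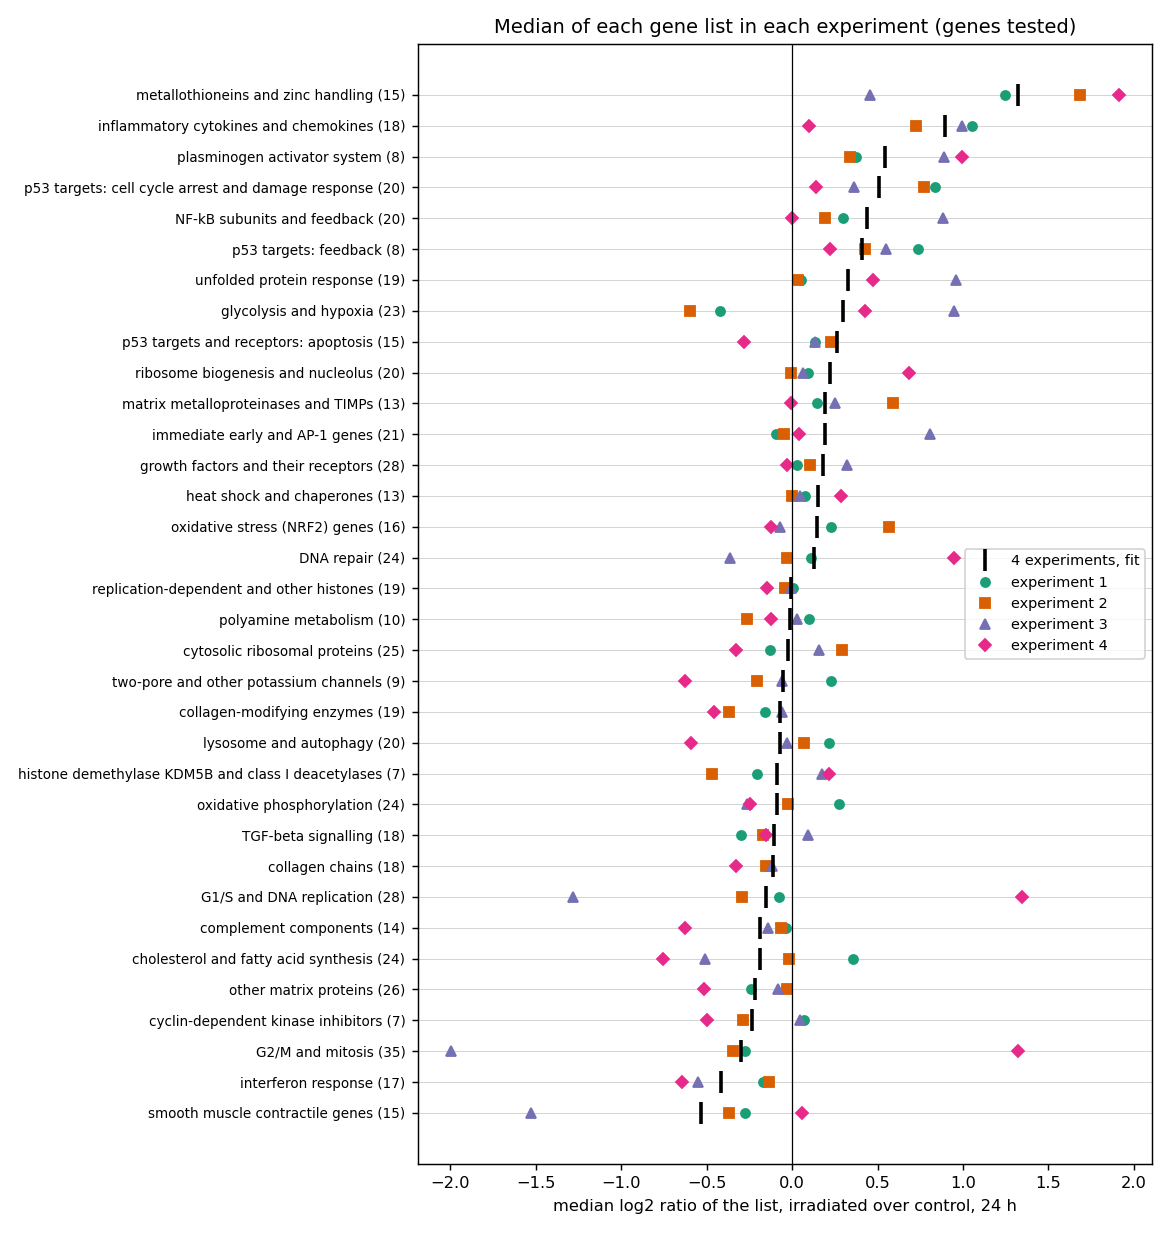
Median log2 ratio of irradiated over control at 24 hours (horizontal axis) for each of 34 gene lists, with the number of genes tested in brackets; points are experiments and black bars the median of the fitted ratios. The metallothionein medians lie above 0 in every experiment, whereas the G2/M list runs from -1.99 in experiment 3 to 1.32 in experiment 4.

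Cell cycle genes moved in opposite directions between experiments. The 35 genes of G2/M and mitosis had median ratios of -0.28, -0.35, -1.99 and 1.32 in experiments 1 to 4, and 8, 4, 1 and 34 of the 35 were above 0. The 28 genes of G1/S and DNA replication had medians of -0.08, -0.29, -1.28 and 1.35, with 11, 8, 2 and 28 above 0. BIRC5, or survivin, which acts in mitosis, had 12.25, 12.60, 12.30 and 13.33 in controls and 12.03, 12.39, 9.06 and 13.96 after irradiation. The irradiated array of experiment 3 was thus the lowest and that of experiment 4 the highest. The proliferation marker MKI67 had 7.44, 6.86, 6.47 and 7.39 against 6.45, 6.51, 3.30 and 8.98. The mitotic kinesin KIF20A had 10.18, 10.23, 9.70 and 10.59 against 9.13, 9.22, 5.81 and 10.53, and a ratio of -1.50 ± 1.66 (adjusted p = 0.281), and -0.71 without experiment 3. No gene of either list was called. At an unadjusted p below 0.05 there was 1 gene of G2/M, lower, and 0 genes of G1/S. The fitted median of the G2/M list was -0.30 over all experiments, 0.20 without experiment 3 and -0.88 without experiment 4, and that of the G1/S list was -0.15, 0.36 and -0.72, so that no common direction was measured.

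Other lists were those of basic cell functions and stress. The 25 ribosomal protein genes had a median of -0.02 and 0 at an unadjusted p below 0.05, and the 19 histone genes had -0.01 and 0. For 24 oxidative phosphorylation genes the median was -0.09, for 20 lysosome and autophagy genes -0.07 with CTSS the only call, and for 24 DNA repair genes 0.13, which was -0.16 without experiment 4. Without experiment 4 the ribosomal and lysosome medians were 0.14 and 0.06, and with arrays unscaled the 5 medians ran from -0.49 to -0.27. The 19 genes of the unfolded protein response had a median of 0.33 with 5 higher at an unadjusted p below 0.05, among them CHAC1 (0.93 ± 0.63, adjusted p = 0.196), but -0.07 with arrays unscaled and 0.14 without experiment 3. Glycolysis and hypoxia genes had medians of -0.42, -0.60, 0.95 and 0.42 in experiments 1 to 4. The hypoxia marker CA9 had 8.28, 8.92, 9.48 and 5.11 in controls and 6.37, 7.43, 12.40 and 8.40 after irradiation, and was lower in experiments 1 and 2 and higher in experiments 3 and 4.

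Whether the cells that the particles crossed differed from their shielded neighbours was tested with the bystander arrays of the same 4 experiments. In limma's moderated test 0 of 25246 probes differed at an adjusted p below 0.10 between irradiated and bystander cells, and 0 between bystander and control cells, where 1245 (4.93%) were higher and 1576 (6.24%) lower in bystander cells at an unadjusted p below 0.05. The latter comparison gave 26 calls without scaling, 5 with the slide as a block and 1 without the intensity trend. Between irradiated and bystander cells there were 72 probes higher (0.285%) and 28 lower (0.111%) in irradiated cells at that level. The bystander arrays of experiments 1 and 2 differed by an SD of 0.302 over the probes tested, against 0.768 to 1.09 for the other pairs. Between experiments 1 and 2 the SD was 0.609 for irradiated and 0.849 for control arrays. How independent these experiments were was not tested. All 44 probes called against control had a bystander ratio of the same sign, and 43 had an unadjusted p below 0.05 there (limma). The irradiated and bystander ratios share their control arrays. Of these 44 probes, 10 differed between irradiated and bystander cells at an unadjusted p below 0.05. Among them were VWCE, with a difference of 0.80 and a 95% interval from 0.40 to 1.21, VAT1L (-0.50, from -0.96 to -0.05) and 1 FRZB probe (-0.38, from -0.74 to -0.01). The 44 probes had been chosen for their distance from control on the same irradiated arrays. That choice favours such differences, so the count of 10 is not a fair test of them. For SERPINB2, MMP3, CXCL5 and PRSS35 the interval held 0. SERPINB2 had a ratio to control of 2.15 in irradiated and 1.94 in bystander cells, with a difference of 0.21 and an interval from -0.43 to 0.85. MMP3 had 2.12 and 2.00 (0.12, from -0.53 to 0.77), CXCL5 had 1.61 and 1.60 (0.01, from -0.47 to 0.48), and PRSS35 had -2.18 and -2.37 (0.19, from -0.42 to 0.79). These ratios share their control arrays. The intervals do not show that the groups were alike, since differences of 0.77 for MMP3 or 0.85 for SERPINB2 lay within them.

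For p53 targets most of the differences lay above 0. Of 20 targets of arrest and damage response 19 were higher in irradiated than in bystander cells, and 7 of 8 feedback genes were, against 55.4% of all genes. Other lists leaned the same way, with 14 of 15 metallothioneins and zinc genes, 8 of 8 plasminogen activator genes, 23 of 25 ribosomal proteins and 19 of 21 immediate early genes, and the lists were not tested against each other. Among these other lists 1 immediate early gene had an unadjusted p below 0.05. At an unadjusted p below 0.05, 6 of the 20 and 3 of the 8 were higher and 0 lower. The median ratios to control were 0.51 and 0.41 in irradiated cells and 0.07 and 0.01 in bystander cells. GDF15 had a difference of 0.65 with a 95% interval from 0.20 to 1.10, PIDD1 of 0.58 (from 0.28 to 0.88), CDKN1A of 0.80 (from 0.13 to 1.48) and MDM2 of 0.44 (from 0.03 to 0.85). Of the 5 smallest unadjusted p-values of this comparison, which were looked up after the values were seen, CYFIP2 (1.08, from 0.57 to 1.59), VWCE (0.80, from 0.40 to 1.21), PIDD1, the mitochondrial reductase FDXR (0.74, from 0.30 to 1.17) and TNFRSF10C (1.05, from 0.38 to 1.72) were all higher in irradiated cells. None of these differences passed adjustment over all probes (adjusted p = 1, limma). In the G2/M list 0 of 35 genes had a higher fitted level in irradiated than in bystander cells, with a median difference of -0.52 and 0 at an unadjusted p below 0.05.

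**Figure D4:**
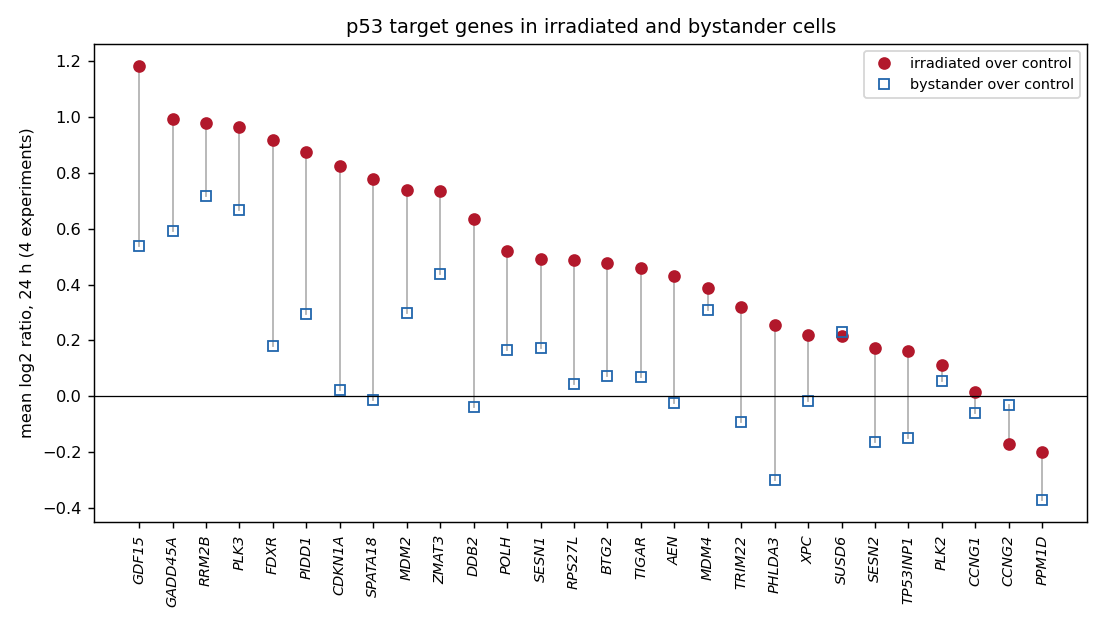
Mean log2 ratio to control at 24 hours (vertical axis, 4 experiments) of the 28 p53 targets of arrest, damage response and feedback, in irradiated cells (filled circles) and bystander cells (open squares). The circle lies above the square for 26 of the 28 genes, with GDF15 at 1.18 and 0.54 and CDKN1A at 0.83 and 0.02.

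The ratios at 24 hours were set against those at 6 hours, the last time point before. In a fit over 24 arrays 0 probes had a ratio that differed between the times at an adjusted p below 0.10, and 312 were higher (1.24%) and 492 lower (1.95%) at 24 hours at an unadjusted p below 0.05. Time points were hybridised on separate slides, so that time and slide cannot be told apart for levels, and only ratios were compared. PRSS35 had mean ratios of -0.30, -0.03, -0.09, -0.09 and -0.42 at the 5 earlier times, from 0.5 to 6 hours, and -2.18 at 24 hours. The difference from 6 hours of -1.77, measured in part on a spot not well above background, did not pass, although its p was the smallest of all probes (unadjusted p = 3.73e-05, adjusted p = 0.942, limma). S1PR1 had -0.84, -0.95, -0.97, -1.49 and -1.73 at the earlier times and -1.66 at 24 hours, a difference from 6 hours of 0.08. The mean of BMP4 was likewise below control at each time, with -1.20 at 0.5 hours, -1.51 at 6 hours and -1.24 at 24 hours.

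Several genes with high ratios at 24 hours had higher ones at 6 hours. GDF15 had a ratio of 3.02 at 6 hours and 1.18 at 24 hours, MMP3 had 3.83 and 2.12, CXCL8 had 4.20 and 1.82, and IL6 had 3.17 and 1.01. The SDs at 6 hours were 1.23 for GDF15, 1.60 for MMP3 and 2.07 for CXCL8. The differences of these genes between the times did not pass (adjusted p = 0.981 for GDF15, MMP3 and CXCL8, limma). Without experiment 3 the ratios at 24 hours were 1.36 for GDF15, 2.36 for MMP3 and 2.20 for CXCL8. SERPINB2 had 4.91 at 6 hours on the probe measured in all experiments and 2.12 at 24 hours. The median of the inflammatory list was 1.53 at 6 hours and 0.89 at 24 hours, and 5 of its 18 genes were lower and 0 higher at 24 hours at an unadjusted p below 0.05, against 1.96% and 1.26% of all genes. Metallothioneins had medians of 1.36 and 1.32, and the p53 arrest list 0.82 and 0.51. The apoptosis list and its receptors had -0.05 at 6 hours and 0.26 at 24 hours, but 5 of its 15 genes were lower at 24 hours at an unadjusted p below 0.05. The death receptor FAS had a difference of -0.97 (unadjusted p = 0.000812, adjusted p = 0.981) and TNFRSF10A had 1.97 at 6 hours and 0.59 at 24 hours.

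**Figure D5:**
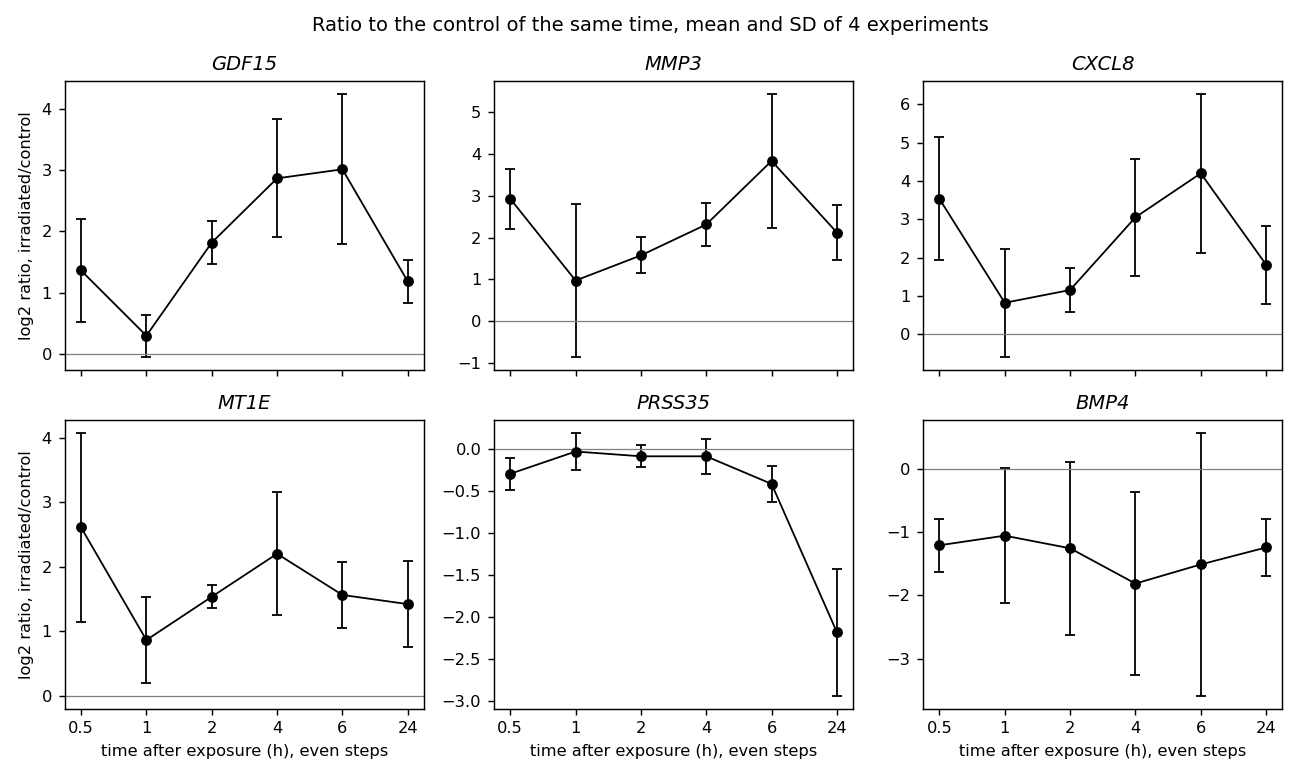
Log2 ratio of irradiated over control (vertical axis, mean and SD of 4 experiments) of 6 genes at the 6 times from 0.5 to 24 hours, spaced evenly on the horizontal axis. GDF15, MMP3 and CXCL8 are highest at 6 hours and lower at 24 hours, the mean of BMP4 lies below 0 throughout, and PRSS35 drops at 24 hours to -2.18.

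The calls were close to the limit of what 4 experiments resolve. Just inside the threshold lay LAMA4, GADD45A and CLDN1, with adjusted p from 0.0973 to 0.0975, and just outside it MPHOSPH6, TSLP and ATF3, with 0.103 to 0.107. With the slide as a further block 9 probes passed, 8 of them among the 44, and with the 8 irradiated and control arrays alone 0 passed, with 1742 probes at an unadjusted p below 0.05. Experiments 1, 3 and 4 had their irradiated and control arrays on 1 slide. Over these 3 the ratio of SERPINB2 was 2.21 ± 0.82, of MMP3 2.03 ± 0.76 and of PRSS35 -2.03 ± 0.85. Before the filter on dim probes, few probes were above background in 1 group alone. Above background on 4 of 4 irradiated and 0 of 4 control arrays was 1 probe, of ESRRB (at least 1.64-fold higher, adjusted p = 0.682 without the filter). The reverse held for 3 probes, of RAB1B (at least 3.49-fold lower, adjusted p = 0.433), SLC25A45 (at least 1.41-fold, adjusted p = 0.79) and a probe without a symbol (at least 4.78-fold, adjusted p = 0.494).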

How the data were processed

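RNA was measured on 1-colour Agilent arrays in 72 samples. The authors deposited scanner files with intensity values, which per the file headers (Feature Extraction 9.1.3.1) were background-subtracted and detrended but not normalized between arrays. A table of log2 values deposited by the authors was used as an alternative.

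The processed intensity was floored at 1, taken to log2 and set to a common 75th percentile. Control spots were left out, as were probes dim or non-uniform on over 10% of the 72 arrays, which left 25246 of 41000. Of all probes, 28697 had a symbol (25398 matched by RefSeq accession), and lists used the brightest of a gene's probes, 13017 genes in all. limma 3.58.1 (R 4.3.3) was fitted to the 12 arrays of 24 hours with treatment and experiment as terms and an intensity trend, with 6 residual degrees of freedom and Benjamini-Hochberg adjustment over all 25246 probes. The threshold was 0.10. Genes named were the 12 largest changes in each direction among calls of 1 sign in 4 experiments, up to 4 members of each list, and 15 set genes; others were singled out after their values were seen, and 1 gene that passed is not reported here. On simulated data 56 of 100 changes of size 1 and 92 of 100 of size 2 (log2) were recovered, with 16 false calls. Noise was drawn independently for each probe there, and each change was the same in every experiment. Measured changes differed between experiments, so these counts do not give the recovery in the real data.

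Same-numbered arrays come from 1 pool of cells, and all 12 pairs of them deviated together (r from 0.236 to 0.896). No columns of other series were used. Alternatives were scaling, normalization, background correction, filter, block, slide, trend, arrays in the fit and each experiment left out. The members and gene lists were chosen with earlier results of these data known.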

Additional observations from a re-analysis of the deposited data

Results flagged for a closer look

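In 322 groups of 4 arrays the gap of the highest or lowest array to its neighbour was divided by the range of the group, and the 21 groups below lay above Dixon's 95% critical value. About 1 group in 20 does so by chance, but these groups share the same experiments and are not independent, and 13 of the 21 had experiment 3 as the array apart.

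Most arrays so far from the others were those of experiment 3. Among controls these were SERPINB2 (0.906, at 15.04 against a median of 8.66), BIRC3 (0.907), the matrix protease MMP10 (0.905), IL6 (0.897), the phosphatase DUSP5 (0.849), the spermine synthase SMS (0.921) and, on the low side, EPHA4 (0.908). Among irradiated arrays they were PTGS2, the inducible cyclooxygenase (0.961, at 16.93, the highest of the 4), MMP10 (0.842) and IL6 (0.875). Low there were the contractile genes MYH11 (0.898, at 6.43 against a median of 10.27) and LMOD1 (0.875) and the ATP synthase subunit ATP5F1C (0.893).

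Experiment 4 stood apart in controls for TXNRD1 (0.944), BMP1 (0.876) and PDGFRB (0.846), and in irradiated cells for C3 (0.942, at 8.44 against a median of 10.42) and the potassium channel KCNK3 (0.915, at 6.17 against a median of 9.40). Experiment 1 did so in controls for FKBP10 (0.928) and KCNE4 (0.855), and experiment 2 in irradiated cells for AEN (0.866). What set these arrays apart was not tested.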

How the results depend on the processing

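The comparison of irradiated with control cells depended on the scaling, the block and every experiment. Against 44 probes called (29 higher, 15 lower), 77 were called without scaling (8 higher, 69 lower), 24 without the filter (15 and 9) and 9 with the slide as a further block (7 and 2). Without the intensity trend 31 were called, 9 of them lower. The fit without the replicate block called 0 (0 higher, 0 lower), as did the irradiated and control arrays alone (0 and 0). Leaving out 1 experiment gave from 0 to 0 calls, with 1692 to 4123 probes at an unadjusted p below 0.05. Quantile normalization (45), normexp (41), the authors' table (43) and the filter over the 24 hour arrays (44) stayed within 1.5 times the count. All 44 kept their direction under all 14 alternatives. The comparisons of irradiated with bystander cells and of 24 with 6 hours gave 0 calls under every alternative run. The causes were not tested. Without scaling the medians were -1.03 for fibroblast markers, -0.93 for smooth muscle genes, -0.81 for interferon genes, -0.70 for G2/M and -0.55 for G1/S. Signal over background limits CLDN1, CXCL5 and PRSS35, each with 1 array not well above background.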

Other observations

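Other gene lists held no call. Over all 13017 genes 6.46% were higher and 7.72% lower at an unadjusted p below 0.05 (limma). Of 21 immediate early and AP-1 genes 5 were higher and 0 lower at an unadjusted p below 0.05 (median 0.19), of 28 growth factors and receptors 6 were higher and 3 lower (0.18), and of 16 oxidative stress genes of NRF2 3 were higher and 1 lower (0.15). Of 20 genes of ribosome biogenesis 4 were higher and 1 lower (0.22). Of 13 heat shock genes 1 was higher and 1 lower, 7.69% each and near the shares of all genes (0.15). With arrays unscaled these 5 medians were -0.21, -0.22, -0.25, -0.18 and -0.25. Leaving out 1 experiment also moved them. The lowest values were -0.02 for immediate early genes (without experiment 3), 0.04 for growth factors (without 2), -0.02 for oxidative stress (without 2), 0.06 for ribosome biogenesis (without 4) and 0.02 for heat shock genes (without 4).

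Lists with a median below 0 were complement, with 4 of 14 genes lower and 1 higher at that level (-0.19, and -0.33 without experiment 3), TGF-beta signalling, with 5 of 18 lower and 1 higher (-0.11, and -0.18 without experiment 4), and collagen-modifying enzymes, with 6 of 19 lower and 1 higher (-0.07, and -0.24 without experiment 1). Of 24 genes of cholesterol and fatty acid synthesis 2 were above 0, but the medians of experiments 1 to 4 were 0.36, -0.02, -0.51 and -0.76. The 7 cyclin-dependent kinase inhibitors had a median of -0.24 with 1 higher and 1 lower, which was -0.43 without experiment 1 and -0.05 without experiment 4. The 7 genes of KDM5B and class I deacetylases had -0.09 with 0 higher and 2 lower, which was -0.28 without experiment 3 and 0.14 without experiment 2. The 9 potassium channels had -0.05 with 1 lower (-0.28 without experiment 2), and the 10 polyamine genes -0.01 with 1 lower (0.11 without experiment 4). A count of 1 in lists of this size is near the share of all genes. With arrays unscaled the medians were -0.59 for complement, -0.51 for TGF-beta signalling, -0.47 for collagen-modifying enzymes, -0.59 for cholesterol and fatty acid synthesis, -0.64 for cyclin-dependent kinase inhibitors, -0.49 for KDM5B and deacetylases, -0.45 for potassium channels and -0.41 for polyamine genes. KCNK3, a channel that sets the resting potential, had 9.95, 10.68, 11.79 and 12.16 in controls and 9.62, 9.33, 9.46 and 6.17 after irradiation, with a ratio of -2.50 ± 2.47 (adjusted p = 0.273, limma), and -1.34 without experiment 4.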
